A study of Sus scrofa with 60 samples.

Results

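Hepatic stellate cell and myofibroblast markers were read from liver RNA-seq as 10 genes chosen by symbol: ACTA2, TAGLN, CNN1, MYH11, DES, VIM, PDGFRA, PDGFRB, THY1 and RGS5. Each symbol matched 1 gene in the count table, so the markers made up 10 of the 30335 named genes, and all 10 were among the 16210 genes that passed a filter on low counts and were tested. Livers came from 60 neonatal pigs of both sexes in 6 groups, which crossed 3 diets with 2 operations to ask how the lipid given in parenteral nutrition (PN) bears on the liver when bile cannot leave it. Pigs were delivered by cesarean section 1 day before term, operated on at day 1 of life, given PN for the first 24 hours, and sampled after 14 days on their diet. In bile duct ligation (BDL) outflow of bile was blocked at 2 ducts, the cystic and the common, while sham pigs were opened and closed with the ducts left intact, and every pig had a jugular catheter. ENT pigs were fed a milk replacer formula by tube, reaching full feeds by day 7, SLE pigs received PN with a soy-based lipid emulsion (Intralipid), and MLE pigs received PN with a mixed lipid emulsion (SMOFlipid). There were 10 BDL and 12 sham pigs on ENT, 11 BDL and 10 sham pigs on SLE, and 8 BDL and 9 sham pigs on MLE, and library totals ran from 14469788 to 21374161 counts with a median of 17254606.

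Stellate cells are the vitamin A-storing pericytes of the liver sinusoid. In injured liver they, and fibroblasts around the portal tract, can turn into myofibroblasts, which build contractile actin filaments and lay down collagen matrix. Platelet-derived growth factor receptors drive the growth and migration of these cells, and several of the same contractile proteins are also made by the smooth muscle of hepatic vessels, so no marker listed here belongs to stellate cells alone.

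The tissue label was checked on hepatocyte genes. ALB, which encodes serum albumin, took between 408786 and 1681627 counts in every library, and it was the most abundant of 8 listed hepatocyte genes at a mean of 38090 TPM, a measure of transcripts per gene length. Markers that define stellate cells were also present, since all 15 listed stellate identity genes passed the count filter, led by COLEC11, a secreted collectin, at 122 TPM.

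A pair of libraries stood apart before any comparison was made. The pair was ENT-BDL replicate 1 and ENT-sham replicate 2. Over the 15841 genes with at least 20 counts in the pair, these differed by a chi-square per degree of freedom of 1.91, while the next closest of all 1770 pairs of libraries differed by 16.1. The median was 53.4 over 274 pairs within a group, SLE-sham replicates 9 and 10 not among them. These libraries carry different surgery labels and share the 3-digit number in their identifiers. For VIM, in CPM (counts scaled to library size), the library labelled ENT-sham replicate 2 held 160.0 and ENT-BDL replicate 1 held 160.5, while the other ENT-sham pigs spanned 56.7 to 97.7. For PDGFRB the values were 162.0 and 165.9, against 65.5 to 103.0 in the other ENT-sham pigs. On ENT, VIM and DES are therefore also given without both libraries, and a fit without them called 2 of 10 markers. The other 8 markers were called on ENT neither with nor without these libraries, and the gene lists below were read with all pigs. Whether the pair came from 1 animal was not tested, and the libraries are counted as separate pigs, as labelled. SLE-sham replicates 9 and 10 share a whole identifier. They differed by 34.2 per degree of freedom, above the closest pair within a group and below the median pair. No pair known to come from 1 animal sets the difference to expect. Whether these 2 libraries came from 1 animal was not tested, and they are counted as separate pigs.

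Expression per gene length set the markers in an order over the 60 pigs. VIM averaged 91.4 TPM, ACTA2 82.8, TAGLN 54.8 and PDGFRB 39.6, followed by RGS5 at 14.6, PDGFRA at 11.8, THY1 at 11.6, DES at 9.60, MYH11 at 4.93 and CNN1 at 4.21. ACTA2 lay above TAGLN in 60 of 60 pigs, PDGFRB above RGS5 in 59, DES above MYH11 in 55, TAGLN above PDGFRB in 47 and MYH11 above CNN1 in 41. The other neighbours in this order were less clearly separated: VIM exceeded ACTA2 in 37 of 60 pigs, RGS5 exceeded PDGFRA in 32, PDGFRA exceeded THY1 in 34 and THY1 exceeded DES in 30. The counts behind these levels ranged from 11 for CNN1 in the lowest pig to 5030 for VIM in the highest.

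Across the whole set, 2 of 10 markers passed an adjusted p of 0.05 after BDL on each diet, and the called markers differed in direction on ENT and MLE. On ENT, 2 of 10 markers were called, VIM higher and DES lower, while 17.4% of all tested genes were called. On SLE, 2 of 10 were called, RGS5 and ACTA2, both higher, beside 4.54% of all tested genes. On MLE, 2 of 10 were called, again VIM higher and DES lower, beside 14.4% of all tested genes. With a fold change above 2 also required, 0 markers were called on ENT, 1 on SLE and 0 on MLE, beside 3.39%, 1.49% and 3.78% of all tested genes. At an unadjusted p under 0.05 edgeR passed 3, 5 and 6 markers on ENT, SLE and MLE, beside 30.0%, 18.3% and 27.8% of all tested genes. DESeq2 called 2, 2 and 3 at its adjusted threshold, beside 11.9% of 25165 genes on ENT and 3.58% on SLE. Its share of all genes on MLE is not given here, so the 3 calls there are not set against a background. The median log2 fold change over the 10 markers was 0.14 on ENT, 0.25 on SLE and 0.29 on MLE, against 0.01, 0.01 and 0.00 over all tested genes. These are bulk tissue values, in which fewer cells of a type and less RNA per cell cannot be told apart.

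**Figure D1:**
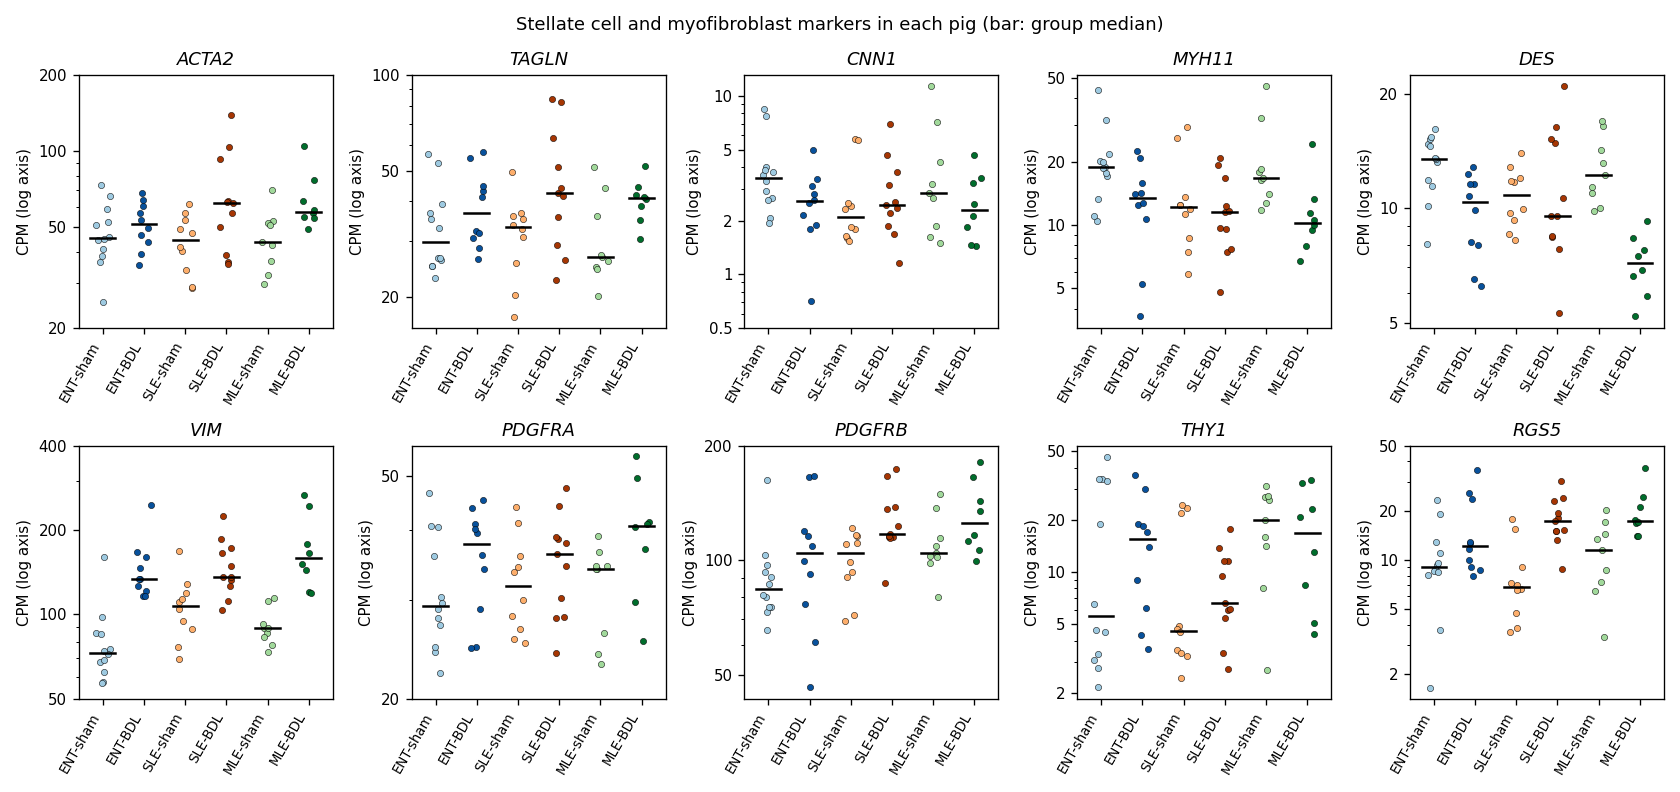
Scaled expression of the 10 markers in each of the 60 pigs, in CPM on log axes, by diet and surgery group; points are pigs and bars are group medians. VIM lay higher and DES lower in all 8 MLE-BDL pigs than in any of the 9 MLE-sham pigs. Such a separation was also shown by 2.94% of all tested genes. THY1 covered more than a 10-fold range inside single groups.

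**Figure D2:**
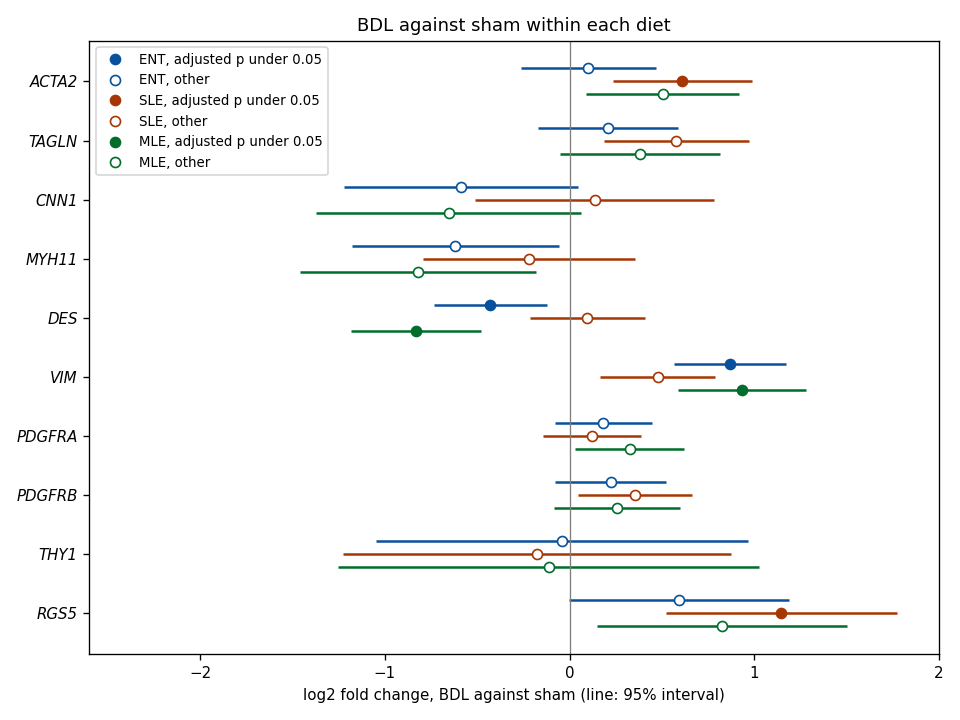
Log2 fold change of each marker in BDL against sham pigs within ENT, SLE and MLE, with 95% intervals as lines; filled points passed an adjusted p of 0.05 over all 16210 tested genes. VIM and DES were called in opposite directions on ENT and MLE, and ACTA2 and RGS5 were called higher on SLE.

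ACTA2 encodes smooth muscle alpha-actin, the filament protein by which myofibroblasts are usually recognised. On ENT, ACTA2 spanned 25.4 to 73.7 CPM with a median of 45.3 in sham pigs and 35.3 to 68.3 with a median of 51.5 in BDL pigs. On SLE the sham range was 28.9 to 62.0 with a median of 44.6, and the BDL range was 35.9 to 139.1 with a median of 62.4. On MLE it ran from 30.0 to 70.3 with a median of 43.7 in sham pigs and from 49.1 to 105.1 with a median of 57.7 in BDL pigs. The ENT groups lay over each other, 6 of 11 SLE-BDL pigs lay above every SLE-sham pig, and the lowest of 8 MLE-BDL pigs lay above the MLE-sham median. The log2 fold change in BDL pigs was 0.61 on SLE (SE 0.19, adjusted p = 0.0464), 0.50 on MLE (SE 0.21, adjusted p = 0.0937) and 0.10 on ENT (SE 0.18, adjusted p = 0.763). The 95% intervals were 0.23 to 0.99, 0.09 to 0.92 and -0.26 to 0.47, so the SLE and MLE intervals covered most of the same values. The SLE effect was not shown to differ from that on ENT, with an interaction of 0.51 (SE 0.26, adjusted p = 0.36), nor the MLE effect from that on ENT, at 0.40 (SE 0.28, adjusted p = 0.722). The SLE call lay near its threshold, and the adjusted p ran from 0.0209 to 0.16 over the alternatives. It was lost without SLE-BDL replicate 2 (0.45, adjusted p = 0.16), without any 1 of SLE-BDL replicates 1, 4, 5, 6 and 9 or SLE-sham replicates 2, 3, 5, 6, 7, 8 and 10 (values from 0.53 to 0.63), and with the identifier number as a block (0.59, adjusted p = 0.121). On MLE a call was gained without MLE-sham replicate 9 (0.60, adjusted p = 0.0453), in edgeR on the MLE groups alone (0.50, adjusted p = 0.0449) and with library totals as the scale (0.72, adjusted p = 0.0137).

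TAGLN, which encodes the actin-binding protein transgelin, followed ACTA2 closely from pig to pig. Its group medians in CPM were 29.8 in ENT-sham and 36.8 in ENT-BDL, 33.2 in SLE-sham and 42.7 in SLE-BDL, and 26.7 in MLE-sham and 41.0 in MLE-BDL. No diet gave a call: the log2 fold changes were 0.21 on ENT (interval -0.17 to 0.59), 0.58 on SLE (0.19 to 0.97, adjusted p = 0.0748) and 0.38 on MLE (-0.05 to 0.81). All 8 MLE-BDL pigs lay above the MLE-sham median, although 1 of them lay above every sham pig. On SLE the threshold was passed without SLE-BDL replicate 3 (0.65, adjusted p = 0.0361), SLE-BDL replicate 11 (0.64, adjusted p = 0.038) or SLE-sham replicate 4 (0.66, adjusted p = 0.0406).

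MYH11 encodes the smooth muscle myosin heavy chain and CNN1 encodes calponin, both typical of mature smooth muscle. MYH11 spanned 10.4 to 43.8 CPM with a median of 18.8 in ENT-sham and 3.68 to 22.5 with a median of 13.4 in ENT-BDL. In MLE pigs the range was 11.7 to 45.6 with a median of 16.7 after sham and 6.76 to 24.1 with a median of 10.3 after BDL, and 6 of 8 BDL pigs lay below every sham pig. Its log2 fold change was -0.62 on ENT (SE 0.28, adjusted p = 0.12), -0.82 on MLE (SE 0.32, adjusted p = 0.0737) and -0.22 on SLE (SE 0.29, adjusted p = 0.745). On MLE it passed in DESeq2 (-0.83, adjusted p = 0.0485) and in edgeR without MLE-BDL replicate 4 (-1.06, adjusted p = 0.0209). CNN1, at 11 to 197 counts per pig, gave -0.59 on ENT (interval -1.22 to 0.04), 0.14 on SLE (-0.51 to 0.78) and -0.66 on MLE (-1.37 to 0.06), none of them called. Single pigs moved these values: CNN1 on MLE was -0.28 without MLE-sham replicate 9 and -0.83 without MLE-BDL replicate 4, and MYH11 on SLE was -0.04 without SLE-sham replicate 4 and -0.33 without SLE-BDL replicate 9. MYH11 overlaps an antisense gene to which 0.25 counts per library were assigned on average, and whether strand was used in counting is not stated, so reads of that gene within MYH11 cannot be told apart.

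Vimentin, encoded by VIM, is the intermediate filament of mesenchymal cells and is also made by leukocytes and endothelium. VIM spanned 56.7 to 160.0 CPM with a median of 73.1 in ENT-sham pigs and 116.1 to 244.7 with a median of 133.5 in ENT-BDL pigs. In SLE pigs the range was 69.5 to 167.8 with a median of 107.5 after sham and 103.7 to 224.3 with a median of 136.3 after BDL. In MLE pigs it was 73.2 to 114.7 with a median of 89.2 after sham and 119.5 to 266.2 with a median of 158.5 after BDL. The MLE groups did not overlap, which 2.94% of all tested genes also showed in that comparison, and on ENT 1 sham library, the one that matched a BDL library, lay inside the BDL range. VIM was higher after BDL by a log2 fold change of 0.87 on ENT (SE 0.15, adjusted p = 3.4e-05) and 0.93 on MLE (SE 0.17, adjusted p = 0.000101), and over the alternative fits the adjusted p stayed between 1.73e-09 and 0.000961 on ENT and between 7.99e-06 and 0.000721 on MLE. Without both matching libraries the ENT value was 0.98 (adjusted p = 4.95e-07) and 9 of 9 BDL pigs lay above all 11 sham pigs, a separation that 2.15% of all tested genes also showed, in a fit that called 3384 of 16141 genes. On SLE the value was 0.48 (SE 0.16, interval 0.16 to 0.79, adjusted p = 0.0632), with 10 of 11 BDL pigs above the sham median. It passed the threshold in 3 of the 21 fits that left out 1 SLE pig: 0.56 without SLE-sham replicate 4 (adjusted p = 0.0259), 0.51 without SLE-BDL replicate 10 and 0.52 without SLE-BDL replicate 11. The SLE effect was not shown to be smaller than the others: its interaction was -0.39 against ENT (SE 0.22, adjusted p = 0.406), and the MLE effect exceeded it by 0.46 (SE 0.23, adjusted p = 0.522).

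Desmin, the intermediate filament of muscle and of quiescent and active stellate cells, is encoded by DES and went the other way. DES spanned 8.05 to 16.2 CPM with a median of 13.5 in ENT-sham and 6.25 to 12.8 with a median of 10.4 in ENT-BDL. On MLE it ran from 9.84 to 16.9 with a median of 12.2 after sham and from 5.20 to 9.25 with a median of 7.19 after BDL. On SLE the sham range was 8.24 to 14.0 with a median of 10.8, and the BDL range was 5.32 to 20.9 with a median of 9.56. All 8 MLE-BDL pigs lay below all 9 MLE-sham pigs, and 2.94% of all tested genes also showed no overlap in that comparison. All 10 ENT-BDL pigs lay below the ENT-sham median, and the SLE-BDL pigs reached both above and below the SLE-sham pigs. The log2 fold change after BDL was -0.83 on MLE (SE 0.18, adjusted p = 0.000535), -0.43 on ENT (SE 0.15, adjusted p = 0.0419) and 0.10 on SLE (SE 0.16, interval -0.22 to 0.41, adjusted p = 0.803). Leaving out both matching libraries gave -0.48 on ENT (adjusted p = 0.0252). The MLE call held in all 25 alternative fits, with adjusted p between 2.52e-06 and 0.00468, whereas on ENT the adjusted p ran from 0.00377 to 0.112. The ENT call was lost without any 1 of ENT-BDL replicates 2, 7, 8, 9 and 10 or ENT-sham replicates 3, 4, 5, 6, 7, 9, 10 and 11, with values of -0.43 to -0.37 and adjusted p of 0.0506 to 0.0879.

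DES varied with the 3-digit number in the pigs' identifiers, which takes 8 values and whose meaning the labels do not give. The number went with 57.3% of the variance of log2 DES inside groups, against 2.6% for ACTA2 and 12.6% for VIM. The 5 SLE-BDL pigs that shared 1 of these numbers held 10.6 to 20.9 CPM, while the other 6 SLE-BDL pigs held 5.32 to 9.56, and no SLE-sham pig carried that number. Inside each number present in both groups, the BDL mean of DES lay below the sham mean in 6 of 6 numbers on ENT, 4 of 4 on SLE and 4 of 4 on MLE. With the number as a block the SLE value turned from 0.10 to -0.20 (adjusted p = 0.42), the MLE value was -0.85 (adjusted p = 2.52e-06) and the ENT value was -0.36 (adjusted p = 0.0135). The effects of BDL on DES on MLE and on SLE differed by -0.93 (SE 0.23, adjusted p = 0.0599), a difference called by DESeq2 (adjusted p = 0.0221) and of -0.65 with the block (adjusted p = 0.0984). Its adjusted p ran from 0.0142 to 0.119 over the alternatives, and it passed without any 1 of SLE-BDL replicates 6, 8, 9 and 11, SLE-sham replicates 3 and 9 or MLE-sham replicate 8, with values of -1.01 to -0.95. No MLE pig carried the number of those 5 SLE-BDL pigs, so MLE and SLE could not be compared within it. ENT pigs of that number averaged 15.23 CPM of DES after sham and 12.21 after BDL, above the mean of every other number in those groups.

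**Figure D3:**
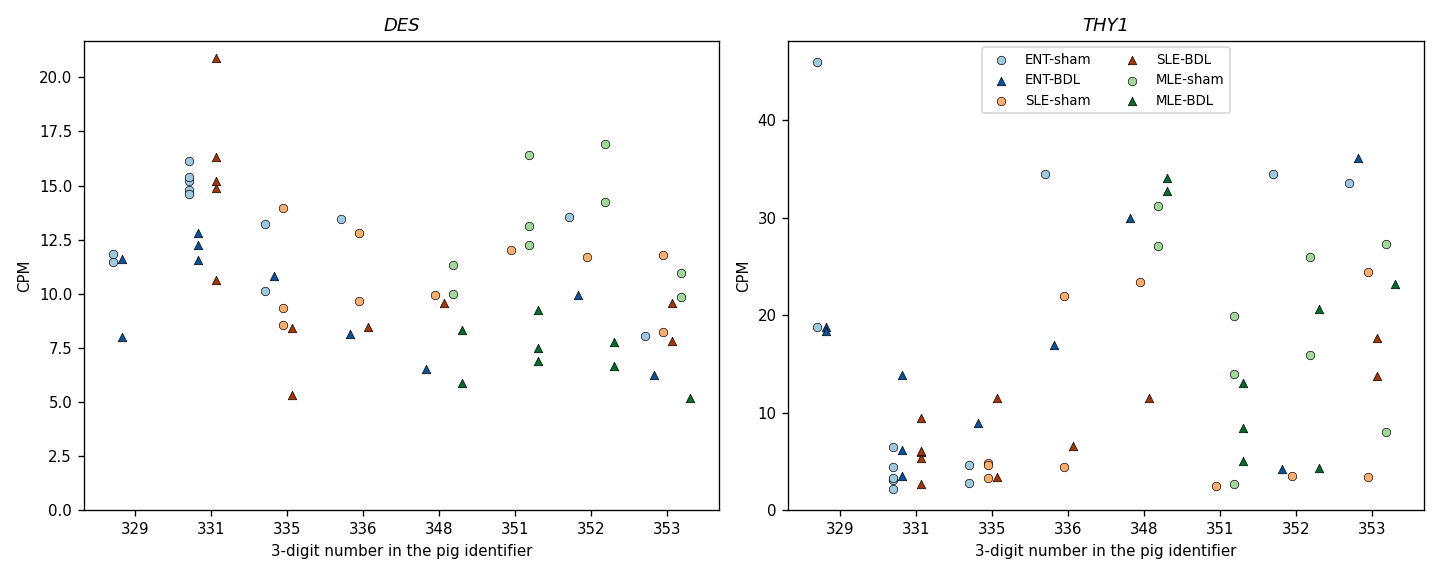
Scaled expression of DES and THY1 in CPM, by the 3-digit number in the pig identifier; circles are sham pigs, triangles are BDL pigs and colours mark the 6 groups. Within each number shared by the sham and BDL pigs of a diet the mean of DES was lower after BDL, and SLE-BDL pigs of 1 number reached 20.9.

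Neither growth factor receptor was called on any diet. PDGFRB, the receptor through which platelet-derived growth factor drives stellate cell division, spanned 46.4 to 181.6 CPM over the 60 pigs, and group medians ran from 84.0 in ENT-sham to 125.5 in MLE-BDL. Its log2 fold changes after BDL were 0.22 on ENT (interval -0.08 to 0.52), 0.35 on SLE (0.05 to 0.66, adjusted p = 0.188) and 0.26 on MLE (-0.08 to 0.60), so in no diet did the interval reach a doubling in either direction. The ENT value was 0.23 without both matching libraries (adjusted p = 0.255), 0.12 without ENT-BDL replicate 1 alone and 0.32 without ENT-sham replicate 2 alone. On SLE 10 of 11 BDL pigs lay above the sham median, and the identifier block gave 0.43 (adjusted p = 0.0353). PDGFRA, its partner on fibroblasts and stellate cells, gave 0.18 (interval -0.08 to 0.44), 0.12 (-0.15 to 0.39) and 0.33 (0.03 to 0.62, adjusted p = 0.131) on ENT, SLE and MLE. Of 5 listed ligand and receptor-like genes of this family, 4 were in the table and tested, and PDGFA, a ligand of PDGFRA, was higher after BDL on ENT by 1.15 (adjusted p = 0.000246), on SLE by 0.91 (adjusted p = 0.0166) and on MLE by 1.01 (adjusted p = 0.00505). PDGFC and PDGFD were also called higher on MLE, at 0.37 (adjusted p = 0.028) and 0.69 (adjusted p = 0.0365), which made 1, 1 and 3 of 4 called higher on the 3 diets and 0 lower, beside 17.4%, 4.54% and 14.4% of all tested genes called in either direction. PDGFRL, a receptor-like gene kept on the same list and its most abundant, was not called on any diet, and the list's medians were 0.35, 0.23 and 0.53.

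THY1, a surface protein of portal fibroblasts and of T cells, was the most variable marker. It ranged from 2.15 to 46.0 CPM in ENT-sham pigs alone, and its coefficient of variation over the 60 pigs was 80.1%, compared with 22.2% for PDGFRA. In the ENT-sham group the 5 pigs of 1 identifier number held 2.15 to 6.49 CPM, and the 2 pigs of another held 2.757 and 4.625. The 2 pigs of a further number held 18.82 and 46.0, and 3 pigs of 3 other numbers held 34.48, 34.51 and 33.55. Pigs of 1 number could also differ widely, as in SLE-sham replicates 5 and 4 at 4.47 and 21.96 CPM. SLE-sham replicates 10 and 9, which share a whole identifier, held 3.38 and 24.47 CPM. The identifier number went with 50.8% of its variance inside groups. The log2 fold changes after BDL were -0.04, -0.18 and -0.11 on ENT, SLE and MLE, with intervals of -1.05 to 0.97, -1.23 to 0.88 and -1.25 to 1.02, so changes short of a doubling could not be detected. The direction was not stable either: the sign turned in 10 of 32 alternative fits on ENT, 4 of 29 on SLE and 3 of 25 on MLE, and the identifier block gave 0.54 on SLE (adjusted p = 0.575).

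RGS5 encodes a regulator of G protein signalling that marks pericytes. It spanned 3.62 to 17.7 CPM with a median of 6.83 in SLE-sham and 8.74 to 30.4 with a median of 17.3 in SLE-BDL. On ENT the range was 1.65 to 23.1 with a median of 9.03 after sham and 8.01 to 35.3 with a median of 12.2 after BDL. On MLE it was 3.37 to 20.1 with a median of 11.5 after sham and 14.0 to 36.4 with a median of 17.3 after BDL. All 11 SLE-BDL pigs lay above the SLE-sham median and 5 above every SLE-sham pig, and all 8 MLE-BDL pigs lay above the MLE-sham median. RGS5 was higher after BDL on SLE by 1.15 (SE 0.31, adjusted p = 0.0222), while the values were 0.82 on MLE (SE 0.34, interval 0.147 to 1.5, adjusted p = 0.0934) and 0.59 on ENT (SE 0.30, interval -0.01 to 1.19, adjusted p = 0.17). The interactions did not separate the diets, at 0.55 for SLE against ENT (adjusted p = 0.602) and -0.32 for MLE against SLE (adjusted p = 0.893). The identifier block gave 0.95 on SLE (adjusted p = 0.0557) and 0.93 on MLE (adjusted p = 0.0318), and leaving out SLE-BDL replicate 5 gave 1.04 on SLE (adjusted p = 0.0514), within a range of 0.00688 to 0.0557 over the alternatives.

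Scaling mattered for the MLE comparison. When library totals alone were used, in place of TMM factors, the median log2 fold change of all tested genes was 0.215 on MLE, 0.109 on ENT and 0.009 on SLE, and 91.3% and 78.1% of all called genes were higher after BDL, compared with 54.4% and 51.0% under TMM. In that fit 5 markers were called on MLE, beside 31.4% of all tested genes, against 14.4% under TMM. ACTA2 at 0.72 (adjusted p = 0.0137), RGS5 at 1.02 (adjusted p = 0.0196) and PDGFRA at 0.54 (adjusted p = 0.0165) were added to VIM at 1.15 and DES at -0.62. DES on ENT was then -0.33 (adjusted p = 0.112), and VIM at 0.94 (adjusted p = 8.63e-05) and DES kept opposite signs on both diets.

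The diets were also compared within each operation. Among BDL pigs, 0 of 10 were called for SLE-BDL against ENT-BDL (19.6% of all tested genes) and 0 of 10 for MLE-BDL against ENT-BDL (16.8%). By edgeR 1 marker in each had an unadjusted p under 0.05, beside 32.1% and 29.7% of all tested genes, and DESeq2 called 0. For MLE-BDL against SLE-BDL, 1 of 10 was called beside 0.907% of all tested genes: DES, lower by a log2 fold change of -0.68 (SE 0.17, adjusted p = 0.0284), with 8 of 8 MLE-BDL pigs below the SLE-BDL median. That value was -0.48 with the identifier block (adjusted p = 0.212), and without SLE-BDL replicate 5, which held the highest DES value, it was -0.57 (adjusted p = 0.0904). The call was also lost without any 1 of SLE-BDL replicate 4 and MLE-BDL replicates 2, 3, 5, 7 and 8, at -0.69 to -0.63, and the adjusted p ran from 0.00555 to 0.212 over the alternatives. For DES in MLE-BDL against ENT-BDL the value was -0.45 (SE 0.17, adjusted p = 0.0633), and it passed without any 1 of ENT-BDL replicates 7, 8 and 10 or MLE-BDL replicate 4, at -0.51 to -0.49. Among sham pigs, 1 of 10 was called for SLE-sham against ENT-sham beside 27.5% of all tested genes, VIM at 0.42 (SE 0.15, adjusted p = 0.0313), with 9 of 10 SLE-sham pigs above the ENT-sham median. Its adjusted p was 0.00171 without both matching libraries, at 0.55, and 0.108 without SLE-sham replicate 4, at 0.33, and the call was also lost without any 1 of ENT-sham replicates 1, 3, 4 and 5 or SLE-sham replicate 5, at 0.38 to 0.40. MYH11 was at -0.55 in that comparison (adjusted p = 0.145) and at -0.74 without SLE-sham replicate 4 (adjusted p = 0.0457). DES was at -0.29 there (adjusted p = 0.165), at -0.36 with the replicate number as a block (adjusted p = 0.038) and at 0.02 with the identifier block (adjusted p = 0.911). MLE-sham against ENT-sham called 0 of 10 (21.1% of all tested genes) and MLE-sham against SLE-sham 0 of 10 (0.999%). In both, 0 markers had an unadjusted p under 0.05 in edgeR, beside 33.3% and 11.3% of all tested genes, and DESeq2 called 0. THY1 had wide intervals here, with 1.04 for MLE-BDL against SLE-BDL (interval -0.05 to 2.14, adjusted p = 0.416), 0.98 for MLE-sham against SLE-sham (-0.11 to 2.07, adjusted p = 0.516) and -0.88 for SLE-BDL against ENT-BDL (-1.92 to 0.17, adjusted p = 0.244).

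Leaving out both matching libraries added PDGFRB to the diet comparisons. It was then higher in MLE-sham than in ENT-sham pigs by 0.40 (adjusted p = 0.0331, against 0.30 and 0.17 with all pigs) and in MLE-BDL than in ENT-BDL pigs by 0.42 (adjusted p = 0.0467, against 0.33 and 0.17). Without ENT-sham replicate 2 alone the sham value was 0.40 (adjusted p = 0.0413). The identifier block gave 0.17 (adjusted p = 0.493) and 0.28 (adjusted p = 0.228) for these 2 comparisons, and for SLE-BDL against ENT-BDL it gave 0.55 (adjusted p = 0.000841) where the fit without it gave 0.28 (adjusted p = 0.205). The identifier number went with 48.0% of the variance of PDGFRB inside groups.

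The BDL effects were compared between diets by interaction tests. In edgeR the 3 tests called 0 of 10 markers each, beside 2.33% of all tested genes for SLE against ENT, 0.0617% for MLE against ENT and 0.265% for MLE against SLE. At an unadjusted p under 0.05 edgeR passed 1, 0 and 1 markers, DES in both cases, beside 14.8%, 9.04% and 9.76% of all tested genes. DESeq2 called 0, 0 and 1, which was DES for MLE against SLE. Library totals alone set the median of all tested genes at 0.139 for MLE-BDL against SLE-BDL, 0.115 for the interaction of MLE against ENT and 0.213 for that of MLE against SLE. The share of calls that were higher then went from 23.8% of 147 to 80.8% of 401, from 3 of 10 to 4 of 5 and from 25.6% of 43 to 87.9% of 124. It went from 53.2% to 34.4% for SLE-BDL against ENT-BDL, from 50.8% to 69.1% for MLE-BDL against ENT-BDL, from 50.8% to 40.4% for MLE-sham against ENT-sham, from 37.0% to 17.1% for MLE-sham against SLE-sham and from 54.1% to 26.8% for the interaction of SLE against ENT.

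Markers were also compared from pig to pig inside groups. With group means subtracted, 18 of 45 pairs of markers had an adjusted p under 0.05 for Pearson's r over the 60 pigs (permutation test, two-sided), 17 of them positive. ACTA2 with TAGLN gave the highest r, at 0.882 (Spearman's rho 0.866), CNN1 with MYH11 gave 0.809 (rho 0.736), and PDGFRA with PDGFRB gave 0.703 (rho 0.693). Each of these 3 pairs had a permutation p of 1e-05, the smallest that 100000 resamples can give, and an adjusted p of 7.5e-05 for both measures. With the identifier number also subtracted the r values were 0.931, 0.853 and 0.696, without the 2 pigs farthest from the median they were 0.875, 0.767 and 0.682, and without both matching libraries they were 0.878, 0.808 and 0.669. VIM passed with TAGLN at r = 0.671 (rho 0.633), ACTA2 at 0.596 (rho 0.559), CNN1 at 0.449 (rho 0.424), PDGFRA at 0.439 (rho 0.451), PDGFRB at 0.38 (rho 0.51) and MYH11 at 0.361 (rho 0.451), with permutation p adjusted to 7.5e-05, 0.000129, 0.00165, 0.00379, 0.016 and 0.0187 for r and to 7.5e-05, 0.000337, 0.00343, 0.00319, 0.000337 and 0.00238 for rho. Without the 2 farthest pigs these r values were 0.668, 0.581, 0.426, 0.494, 0.502 and 0.33. VIM with PDGFRB was 0.264 without both matching libraries (adjusted p = 0.161). With the identifier number subtracted neither VIM with PDGFRB (0.321, adjusted p = 0.0607) nor VIM with MYH11 (0.328, adjusted p = 0.0511) passed. ACTA2 and PDGFRB were related more loosely, at r = 0.294 (rho 0.294, permutation p = 0.0151 and 0.0249, adjusted 0.0399 and 0.0559), and r was 0.224 without both matching libraries (adjusted p = 0.163) and 0.279 without the 2 farthest pigs (adjusted p = 0.0619). With the identifier number subtracted r was 0.35 for that pair (adjusted p = 0.0213).

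DES passed with 1 other marker. Its r was 0.104 with ACTA2, 0.003 with TAGLN, 0.076 with MYH11 and -0.176 with VIM, none of which passed (permutation test, adjusted p = 0.594, 0.985, 0.642 and 0.26). It ran against THY1 at r = -0.386 (rho -0.386, permutation p = 0.00094 and 0.0019, adjusted 0.00379 and 0.00611), but r was -0.035 once the identifier number was subtracted (adjusted p = 0.868), so that relation did not hold within numbers. Without the 2 farthest pigs it was -0.41.

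**Figure D4:**
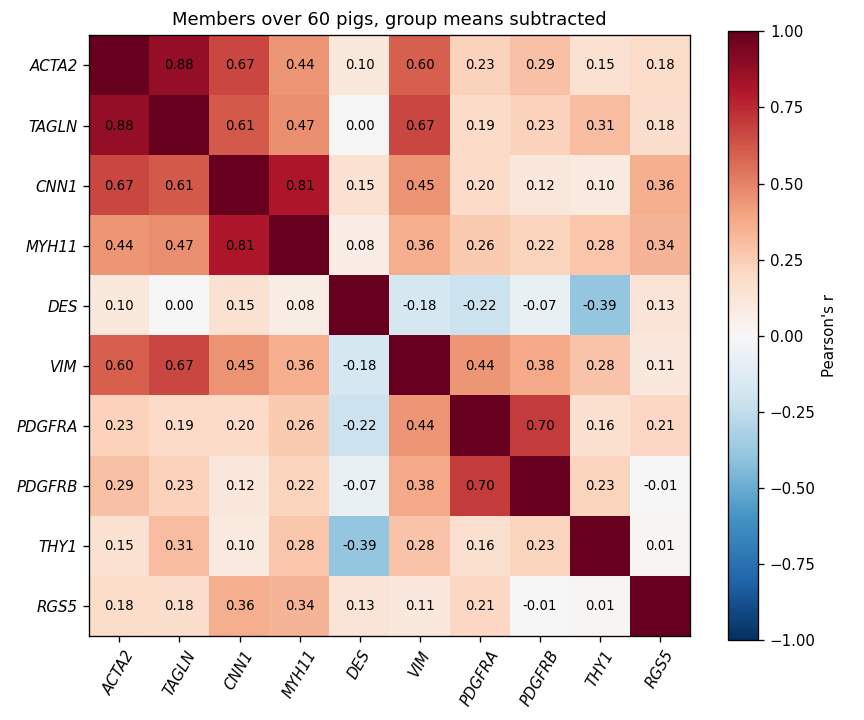
Pearson's r between the log2 expression of each pair of markers over 60 pigs after group means were subtracted, from -1 in blue to 1 in red. ACTA2 and TAGLN, CNN1 and MYH11, and PDGFRA and PDGFRB formed the closest pairs at 0.882, 0.809 and 0.703, and DES had values near 0 or below with most others.

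The genes most like ACTA2 and PDGFRB were named by the same measure over the 60 pigs, among 10804 tested genes other than the 10 markers with an assigned symbol and a mean of at least 2 on the log2 CPM scale. For ACTA2 they were TPM2 (r = 0.767), an actin-binding tropomyosin, the matrix proteins SPARC (0.723) and THBS2 (0.716), and FHL1 (0.71) and CPZ (0.707). For PDGFRB they were COL4A1 (0.887) and COL4A2 (0.877), the chains of basement membrane collagen, with ARHGEF17 (0.882), KIRREL (0.836) and HDAC7 (0.821). Unlike the r values between markers, these are given only for all pigs with group means subtracted. They are not given without the matching libraries or with the identifier number subtracted.

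Genes related to the markers were read as lists, and the shares of all tested genes called on ENT, SLE and MLE, 17.4%, 4.54% and 14.4%, are the background for each count of calls below. Of 15 myofibroblast matrix genes, 7 were called higher after BDL on ENT, 4 on SLE and 10 on MLE, with 0 lower, and their median log2 fold changes were 0.56, 0.55 and 0.96, against 0.01, 0.01 and 0.00 over all tested genes. TIMP1, an inhibitor of matrix-degrading enzymes, rose by 1.41 on ENT (adjusted p = 0.0247), 2.23 on SLE (adjusted p = 0.00385) and 3.41 on MLE (adjusted p = 1.7e-05). COL3A1, a fibrillar collagen, rose by 0.79 on ENT (adjusted p = 0.00323) and 1.00 on MLE (adjusted p = 0.00137), and COL1A1 by 1.56 on MLE (adjusted p = 0.00265). COL1A2 was higher on ENT by 0.76 (adjusted p = 0.0188), COL6A3 on SLE by 0.94 (adjusted p = 0.00707) and on MLE by 1.44 (adjusted p = 3.55e-05), and LOXL2, a collagen cross-linking enzyme, on SLE by 0.73 (adjusted p = 0.0097). FN1 was the most abundant gene of the list at 1504 TPM, and it was not called on any diet. The summed level of the list ranged from 6929 to 10770 CPM in ENT-sham and 6616 to 10950 in ENT-BDL, 7422 to 10620 and 8530 to 13990 on SLE, and 6539 to 10240 and 7767 to 13610 on MLE.

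Among 17 genes of the smooth muscle contractile apparatus, 6 were higher and 2 lower on ENT, 3 higher and 0 lower on SLE, and 4 higher and 1 lower on MLE, with medians of 0.05, 0.18 and 0.17. The nonmuscle forms CNN3 (0.70 on ENT, adjusted p = 4.8e-06), MYH10 (0.60 on ENT, adjusted p = 0.000259) and FLNA (0.73 on MLE, adjusted p = 0.000599) were called higher on all 3 diets. ACTG2, the enteric smooth muscle actin, was lower on ENT by -1.12 (adjusted p = 0.0364) and on MLE by -1.51 (adjusted p = 0.0153), and TPM2 was lower on ENT by -0.40 (adjusted p = 0.00854). The most abundant gene, CALD1 at 129 TPM, was higher on ENT by 0.26 (adjusted p = 0.0137).

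Regulators and targets of SRF and YAP, factors that switch on contractile and matrix genes under tension, gave 5, 4 and 7 of 12 genes called higher on ENT, SLE and MLE and 0 lower, with medians of 0.21, 0.20 and 0.39. ANKRD1 rose by 2.33 on ENT (adjusted p = 0.000396), 1.75 on SLE (adjusted p = 0.0465) and 3.21 on MLE (adjusted p = 0.000483). CYR61 rose by 1.24 (adjusted p = 0.000392), 1.41 (adjusted p = 0.00107) and 0.83 (adjusted p = 0.0435), and CTGF by 0.87 (adjusted p = 0.0011), 1.01 (adjusted p = 0.00231) and 0.96 (adjusted p = 0.0021). SRF itself was not called on any diet, and WWTR1, the most abundant of the list at 29.6 TPM, was higher on ENT by 0.23 (adjusted p = 0.0213). Of 6 partners of intermediate filaments, 1, 3 and 1 were higher on ENT, SLE and MLE and 0, 0 and 1 lower, with medians of 0.16, 0.25 and 0.13. NES, encoding nestin, was higher on ENT by 0.98 (adjusted p = 0.000922), on SLE by 0.82 (adjusted p = 0.0225) and on MLE by 1.13 (adjusted p = 0.000938). SYNM, encoding the desmin-binding filament protein synemin, was lower on MLE by -0.60 (adjusted p = 0.00768), where DES was also lower, and LMNA led the list at 45.5 TPM. On SLE, LMNA (0.30, adjusted p = 0.0346) and CRYAB, a filament chaperone (0.59, adjusted p = 0.0274), were higher.

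Genes that identify stellate cells showed no common direction. Of 15, 2 were higher and 1 lower on ENT, 0 and 0 on SLE, and 0 and 1 on MLE, with medians of 0.00, 0.01 and 0.03, compared with 0.01, 0.01 and 0.00 over all tested genes. PPARG, a nuclear receptor of fat-storing cells, was higher on ENT by 1.46 (adjusted p = 0.000737), and the stellate cell factor LHX2 was lower by -0.54 (adjusted p = 0.0071). COLEC11 was lower on MLE by -0.41 (adjusted p = 0.0205). The summed level ranged from 524.6 to 772.7 CPM in ENT-sham and from 525.7 to 773.0 in ENT-BDL, from 433 to 723 and 303 to 706 on SLE, and from 543 to 711 and 530 to 675 on MLE.

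Portal fibroblast genes were called higher for 3, 0 and 1 of 10 tested on ENT, SLE and MLE and lower for 0, 0 and 1, with medians of 0.07, 0.21 and -0.08. MGP, the most abundant at 321 TPM and an inhibitor of calcification, was higher on ENT by 1.13 (adjusted p = 0.00019), DPT by 0.66 (adjusted p = 0.0184), and COL15A1 by 0.83 on ENT (adjusted p = 0.0034) and 1.10 on MLE (adjusted p = 0.000791), while CLEC3B was lower on MLE by -0.59 (adjusted p = 0.0189). Pericyte and vascular mural genes were higher for 1, 1 and 2 of 9 tested and lower for 1, 0 and 1, with medians of 0.01, 0.14 and -0.05. RGS4, a relative of RGS5, was higher on SLE by 1.45 (adjusted p = 0.00841). MCAM was higher on MLE by 0.48 (adjusted p = 0.00278), CD248 by 0.82 (adjusted p = 0.0381), and AGTR1, the angiotensin receptor that led the list at 93.6 TPM, was lower on ENT by -0.39 (adjusted p = 0.00175) and on MLE by -0.50 (adjusted p = 0.00046).

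Markers of other liver cells moved with BDL as well. Of 9 cholangiocyte genes, 5, 1 and 6 were higher on ENT, SLE and MLE and 0 lower, and their summed level ranged from 90.4 to 423.0 CPM in ENT-sham (to 220.2 without the matching library) and 250.3 to 425.7 in ENT-BDL, 235.7 to 404.4 and 284.9 to 466.2 on SLE, and 198.0 to 271.5 and 272.8 to 476.9 on MLE. KRT7 was called on all 3 diets, at 1.86, 1.46 and 1.83 (adjusted p = 6.78e-05, 0.00942 and 0.000728), and CLDN4 was the most abundant at 123 TPM. SPP1 was higher on ENT by 2.17 (adjusted p = 1.83e-07) and on MLE by 1.54 (adjusted p = 0.000427), KRT19 on ENT by 1.34 (adjusted p = 9.83e-05), and SOX9 on MLE by 1.65 (adjusted p = 0.000272). Of 9 hepatocyte genes tested, 4, 0 and 6 were lower on ENT, SLE and MLE and 1, 0 and 0 higher, with medians of -0.24, -0.03 and -0.57. Their summed level ranged from 66260 to 142900 CPM in ENT-sham and 66530 to 128000 in ENT-BDL (from 105900 and from 82630 without the matching libraries), 94110 to 125900 and 72340 to 145000 on SLE, and 86230 to 143600 and 67970 to 91480 on MLE. ALB changed by -0.83 on ENT (adjusted p = 7.46e-05), -0.33 on SLE (adjusted p = 0.234) and -0.77 on MLE (adjusted p = 0.00113). FGB was lower on ENT by -0.58 (adjusted p = 0.00515) and on MLE by -0.82 (adjusted p = 0.000567), APOA1 on MLE by -0.77 (adjusted p = 0.000442), and 1 of 2 genes listed as TF was higher on ENT by 0.84 (adjusted p = 3.78e-06). The part of these cell types in the VIM and DES results was not tested.

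Lists of other cells that make filament and contractile proteins were read in the same way. Of 9 endothelial genes, 0 were higher on any diet and 2, 0 and 2 were lower, led by CLEC4G, the most abundant at 173 TPM, at -0.69 on ENT (adjusted p = 0.00681) and -1.02 on MLE (adjusted p = 0.000528), with LYVE1 at -0.45 on ENT (adjusted p = 0.0479) and STAB1 at -0.58 on MLE (adjusted p = 0.0171), and the summed level over the 6 groups ran from 430.1 to 1836 CPM. Of 8 macrophage and leukocyte genes, 1 was higher on each diet, MARCO at 1.48, 1.01 and 1.13 (adjusted p = 1.06e-05, 0.0102 and 0.00278), and C1QA was lower on ENT by -0.48 (adjusted p = 0.0237) and on MLE by -0.58 (adjusted p = 0.0163), with C1QB the most abundant at 404 TPM and summed levels of 477.3 to 1301 CPM. Of 13 striated muscle genes, 6 were tested, 6 averaged under 0.1 CPM, among them ACTA1, MYH1 and MYH2, and 1 was called on ENT (TNNT1, 0.78, adjusted p = 0.0468) and 1 on SLE (TNNI2, -1.14, adjusted p = 0.0416). TNNI2 made up most of that list at 55.2 TPM, and the summed level ran from 7.77 to 17.8 CPM in ENT-sham and 13.8 to 23.5 in ENT-BDL, 17.6 to 80.4 and 8.41 to 32.0 on SLE, and 12.8 to 65.9 and 22.03 to 48.61 on MLE. Of 5 listed mesothelial genes, 2 were tested and 0 were called by edgeR on any diet, with summed levels of 0.678 to 4.29 CPM and UPK1B the most abundant at 1.03 TPM.

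In the Sscrofa11.1 build the markers lie on 8 chromosomes, so few share a neighbourhood. ACTA2 (gene ID 733615) lies on chromosome 14 from 100868145 to 100886732 on the minus strand, VIM (100522394) on chromosome 10 from 43516441 to 43526172 and DES (396725) on chromosome 15 from 121428539 to 121435426, both on the plus strand. TAGLN and THY1 are both on chromosome 9, from 44561756 to 44567385 and from 46607022 to 46612691, and CNN1 and PDGFRB are both on chromosome 2, from 70183370 to 70190756 and from 151155753 to 151192818. RGS5 (397640) lies on chromosome 4 from 87286953 to 87340816, MYH11 on chromosome 3 from 7002667 to 7143093 and PDGFRA on chromosome 8 from 40966568 to 41021440.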

How the data were processed

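Gene counts per pig were deposited by the authors, whose processing notes name HISAT2 2.0.5, StringTie 1.3.3, featureCounts 1.5.0-p3 and the Sscrofa11.1 build; the use of strand in counting is not given in the sources used here. The 24 features without a gene name were left out of library sizes and tests and held 0.00842% to 0.0407% of the counts. The 60 pigs were fitted together with edgeR 4.0.16 (R 4.3.3): filterByExpr on the 6 groups, TMM factors, robust quasi-likelihood F tests, and Benjamini-Hochberg adjustment over 16210 genes. SE is the absolute log2 fold change over the square root of F, and 95% intervals use the t distribution. Called means an adjusted p under 0.05. CPM uses TMM library sizes, log2 CPM a prior count of 2, and TPM the deposited gene lengths without TMM. Alternatives included DESeq2 1.42.0. Correlations used 100000 permutations within groups (numpy 2.4.6, scipy 1.17.1). The fits were tested on data simulated for SLE-BDL against SLE-sham only. Of 50 genes changed 1.5-fold, edgeR and DESeq2 each found 28. Of 50 changed 2-fold, they found 45 and 46, with 6 and 12 false calls in the whole simulated set. Python 3.11.15, pandas 2.3.3 and matplotlib 3.10.9 were used for summaries and figures.

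The 10 genes and the gene lists were chosen with earlier results of these data known. Named genes were all 10 markers; from each list its most abundant gene per length and up to 3 called genes per BDL comparison with the largest absolute log2 fold change; and the 5 genes outside the markers with the highest r to ACTA2 and to PDGFRB among those with a mean log2 CPM of at least 2 and a symbol not starting with LOC. Of the stellate identity genes called on ENT, 1 that falls under the rule is not named. SRF, ACTA1, MYH1 and MYH2 are outside that rule and were named after their values were seen. PDGFB, COX4I2 and MSLN had no symbol match in the table and were not used here. CYR61 and CTGF are the table's symbols for CCN1 and CCN2.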

Additional observations from a re-analysis of the deposited data

Results flagged for a closer look

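VIM in ENT-BDL replicate 4, at 244.7 CPM, stood far above the other 9 pigs of its group, which held 116.1 to 166.4. The gap to the nearest pig was 0.517 of the group's whole range on the log2 scale. The test was made on 40 sets of values, 10 markers in each of the 4 groups of 8 to 10 pigs, and chance alone marks about 1 in 20 of such sets, so 1 of 40 is not above that rate. In the edgeR fit on all 60 pigs no difference in the BDL effect between diets passed an adjusted p of 0.05 for any of the 10 markers, with DES the nearest; for DES on MLE against SLE, 7 of 38 edgeR fits without 1 pig passed, as did the replicate block and DESeq2.

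Limits: in bulk liver the number of cells and the RNA per cell cannot be separated, and every marker is made by more than 1 cell type. The identifier number has no stated meaning and is spread unevenly over the diets, so its part in DES, THY1 and PDGFRB cannot be parted fully from diet. The matching pair was counted as separate pigs in opposite groups; whether it came from 1 animal was not tested. Groups of 8 to 12 pigs leave wide intervals for THY1, CNN1 and RGS5. Protein and tissue sections were not used here.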

How the results depend on the processing

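VIM after BDL on ENT kept its direction and call in all 32 alternative fits, as did VIM and DES on MLE in all 25. The call was lost in 15 of 32 fits for DES on ENT, 18 of 29 for ACTA2 on SLE, 2 of 29 for RGS5 on SLE, 10 of 27 for DES in MLE-BDL against SLE-BDL and 9 of 32 for VIM in SLE-sham against ENT-sham. Where a count or direction moved, the cause was not tested.

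Members called numbered 2 on each diet for BDL against sham. Counts below that stand without a share of all tested genes have no background here and are not read as results about the markers. Requiring a fold change above 2 gave 0 on ENT, 1 on SLE and 0 on MLE, beside 3.39%, 1.49% and 3.78% of all tested genes. It gave 0 in place of 1 for MLE-BDL against SLE-BDL (0.37%) and for SLE-sham against ENT-sham (5.24%). With no normalization factor, chosen after seeing the data, the counts were 1, 1 and 5, beside 19.2%, 3.39% and 31.4% of all tested genes. They were 0 and 0 for those diet comparisons, beside 2.47% and 25.5%. THY1 turned to 0.05 on ENT and 0.08 on MLE in that fit. With no low-count filter the counts were 1 on ENT and 1 on SLE, beside 10.1% and 2.29% of 25165 genes. With edgeR on the groups compared they were 1 on SLE (2.83% of all genes tested there), 0 for MLE-BDL against SLE-BDL, 0 for SLE-sham against ENT-sham and 1 in place of 0 for MLE-BDL against ENT-BDL. At least 10 counts in every pig gave 1 for MLE-BDL against ENT-BDL.

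Without both matching libraries 1 in place of 0 was called for MLE-BDL against ENT-BDL and 1 for MLE-sham against ENT-sham, and DESeq2 without them, chosen after seeing the data, gave 1 and 1. DESeq2 on all pigs gave 1 in place of 0 for the interaction of MLE against SLE.

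Replicate numbers do not pair the pigs: over 82 pairs of pigs with the same number r ran from -0.231 to 0.381 with a median of -0.011. With the replicate number as a block the counts were 1 on SLE (5.03% of all tested genes), 1 for MLE-BDL against ENT-BDL and 1 for the interaction of MLE against SLE, and THY1 on ENT was 0.58. With the identifier number as a block they were 1 on SLE (PDGFRB, with neither ACTA2 nor RGS5 called, beside 4.15% of all tested genes), 3 on MLE (RGS5 gained), 1 for SLE-BDL against ENT-BDL and 0 for MLE-BDL against SLE-BDL. DES on SLE was then -0.20, THY1 on SLE 0.54, DES in SLE-sham against ENT-sham 0.02 and in MLE-sham against ENT-sham 0.20.

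Leaving out each pig in turn gave counts of 1 to 2 on ENT, 0 to 4 on SLE and 2 to 3 on MLE. The shares of all tested genes called in these fits are not given here, so whether the counts moved with those shares is not shown. The counts were 0 to 1 for MLE-BDL against ENT-BDL, MLE-BDL against SLE-BDL, MLE-sham against ENT-sham, SLE-sham against ENT-sham and the interaction of MLE against SLE. THY1 ran from -0.26 to 0.22 on ENT, -0.34 to 0.09 on SLE and -0.32 to 0.03 on MLE, DES on SLE from -0.03 to 0.17 and CNN1 on SLE from -0.07 to 0.33.

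Depth limits CNN1 most, at 11 to 197 counts per pig.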
